A study of Mus musculus with 16 samples.

Results

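The genes described here carry fatty acids into heart muscle cells, store them and burn them. They are 37 genes chosen by name and sorted by step: 6 of uptake and activation, 6 of lipid droplets and storage, 3 of malonyl-CoA control, 6 of the carnitine shuttle, 13 of beta-oxidation and 3 of electron transfer. A gene counted as measured when a probe set of the array was annotated with its symbol alone, and 34 of the 37 were measured, among 17097 genes in all. Acsl1, Hadha and Etfb were not analysed here: for the first pair no probe set was listed under the gene, and the probe set of Etfb was shared with Vsig10l. RNA of cardiomyocytes from 16 mice was hybridised to Affymetrix MG-430 PM arrays, with 1 mouse per array and 4 mice per group. The groups were female GPER KO (animals 417, 419, 426 and 427), female intact (418, 421, 422 and 425), male GPER KO (431, 432, 444 and 451) and male intact mice (430, 433, 452 and 453), and values per array are given in these orders. GPER is the G protein-coupled estrogen receptor. The study describes its deletion as specific to cardiomyocytes, and the Cre driver and strain are not given in the sources used here. Intact mice are labelled wild type, no mouse received a treatment according to the labels, and the label gives an age of 15 weeks for every animal, while the methods text gives an older age. The cells came from ventricles digested with collagenase, strained and spun at low speed, with no sort for a cell type. The study asked how loss of the receptor changes cardiomyocyte transcripts in each sex.

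The adult heart draws most of its energy from long-chain fatty acids. Lipoprotein lipase frees them from circulating triglyceride, Cd36 and fatty acid transport proteins bring them into the cell, and acyl-CoA synthetases activate them. The acyl groups then either enter triglyceride in lipid droplets or cross the inner mitochondrial membrane as carnitine esters, and malonyl-CoA brakes this crossing by inhibiting carnitine palmitoyltransferase 1. In the matrix each turn of beta-oxidation removes a pair of carbons through 4 reactions, dehydrogenation, hydration, a second dehydrogenation and thiolysis, and electrons of the first reaction pass through electron transfer flavoprotein to the respiratory chain.

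Values are the deposited log2 values, for which higher means more signal, and a difference is GPER KO minus intact on that scale. Array medians lay between 3.47 and 3.51, and Xist, which silences an X chromosome in female cells, was 8.06 to 8.97 in female GPER KO and 7.57 to 8.31 in female intact mice, with 4.45 to 5.28 in male GPER KO and 4.47 to 4.82 in male intact mice, so the sex labels held on every array. Gper1, the deleted gene, lay at percentile 24.3 of the array and averaged 2.79 ± 0.13 in female GPER KO and 2.87 ± 0.16 in female intact mice, and 2.78 ± 0.07 in male GPER KO and 2.77 ± 0.12 in male intact mice (SD, n = 4 each). Whether its probe set falls inside the deletion is not known here, so it does not check the genotype labels. The 11 measured cardiomyocyte markers had a median difference of 0.00 in females and -0.01 in males. Marker levels of other cell types follow. All 15 endothelial markers were lower in GPER KO mice of each sex, with medians of -0.26 in females and -0.33 in males, and 0 passed the test. Their mean ran between 5.43 and 5.84 in female GPER KO, 5.65 and 6.11 in female intact, 5.48 and 5.96 in male GPER KO, and 5.64 and 6.30 in male intact mice. Of 12 macrophage markers, 11 were higher in each sex, with medians of 0.42 in females and 0.70 in males. Those passing the test numbered 0 in females, 4 in males and 5 over both sexes. Of all genes, 0.281%, 0.62% and 1.36% passed in these comparisons. The macrophage mean ran between 4.97 and 5.26 in female GPER KO, 4.64 and 4.89 in female intact, 5.20 and 5.88 in male GPER KO, and 4.78 and 5.41 in male intact mice. The mean of 3 atrial markers varied between 7.71 and 9.71 in female GPER KO, 8.07 and 9.78 in female intact, 9.00 and 10.56 in male GPER KO and 7.66 and 9.74 in male intact mice, although the cells came from ventricles. Median differences of these 3 were -1.11 in females and 1.38 in males. Nppa, the atrial natriuretic peptide that stressed ventricles also make, was the 1 of them that passed the test, with 1.18 in females (limma adjusted p = 0.048), 1.41 in males (adjusted p = 0.00903) and 1.29 over both sexes (adjusted p = 0.000577). Of 9 fibroblast markers, 7 were higher in females and 5 in males, with medians of 0.20 and 0.19, and 0 passed the test. The fibroblast mean was 5.17 to 5.44 in female GPER KO, 4.84 to 5.30 in female intact, 4.98 to 5.80 in male GPER KO and 5.0 to 5.51 in male intact mice. Of the 8 adipocyte markers 5 were measured and 0 passed the test. Adipoq, which defines fat cells, read 2.70 to 2.89 on all arrays, at percentile 23.6, and Lep lay at percentile 16.8, while Car3 lay at percentile 51.9 and Retn, at 5.50 to 5.83, at percentile 80.6. The adipocyte mean was 3.49 to 3.62 in female GPER KO, 3.58 to 3.67 in female intact, 3.46 to 3.65 in male GPER KO and 3.48 to 3.59 in male intact mice. Smooth muscle and erythroid markers had medians of -0.11 and -0.28 in females and -0.12 and 0.01 in males, and 0 passed. The part of these marker levels in the results below was not tested, and fewer cells of a type cannot be told apart from less RNA per cell.

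Most of the measured fatty acid genes were lower in GPER KO cardiomyocytes, by small amounts. Of the 34, 30 were below intact in females, with a median difference of -0.19, and 29 were below intact in males, with a median of -0.14. Over all genes tested, 58.8% in females and 43.5% in males lay below intact, with medians of -0.02 in females and 0.02 in males. A total of 26 members were below intact in both sexes, against 24.8% of all genes, and 1, Acaca, was above intact in both. Of the other members, 4 were below in females and above in males, and 3 the other way round. Over both sexes 31 were below intact, against 50.9% of all genes. Without female intact animals 421 and 422 together the female median was -0.09.

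Few of these differences passed a test across the whole array. With limma and Benjamini-Hochberg adjustment over 17097 genes, 0 of 34 members passed an adjusted p of 0.05 in females, where 0.281% of all genes did, and 0 passed in males, where 0.62% of all genes did. At an unadjusted p under 0.05, 16 members were lower in females, against 7.53% of all genes, and 13 were lower in males, against 3.06% of all genes. In either sex 0 were higher, against 5.05% of all genes in females and 7.05% in males. Averaged over both sexes, which sets 8 GPER KO against 8 intact arrays, 3 members passed the adjusted test and all 3 were lower, against 1.36% of all genes in either direction and 0.538% lower. These were Hadh, Eci1 and Etfdh. Without female intact 425 alone, 5 members passed in females and 10 over both sexes, all of them lower, and the share of all genes that passed was then 0.93% in females and 1.73% over both sexes. At an unadjusted p under 0.05, 21 members were lower over both sexes, against 5.77% of all genes, and 0 were higher, against 5.9%. All 4 GPER KO arrays lay below all 4 intact arrays for 6 members in females, against 3.73% of all genes, and for 9 members in males, against 1.97% of all genes.

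**Figure D1:**
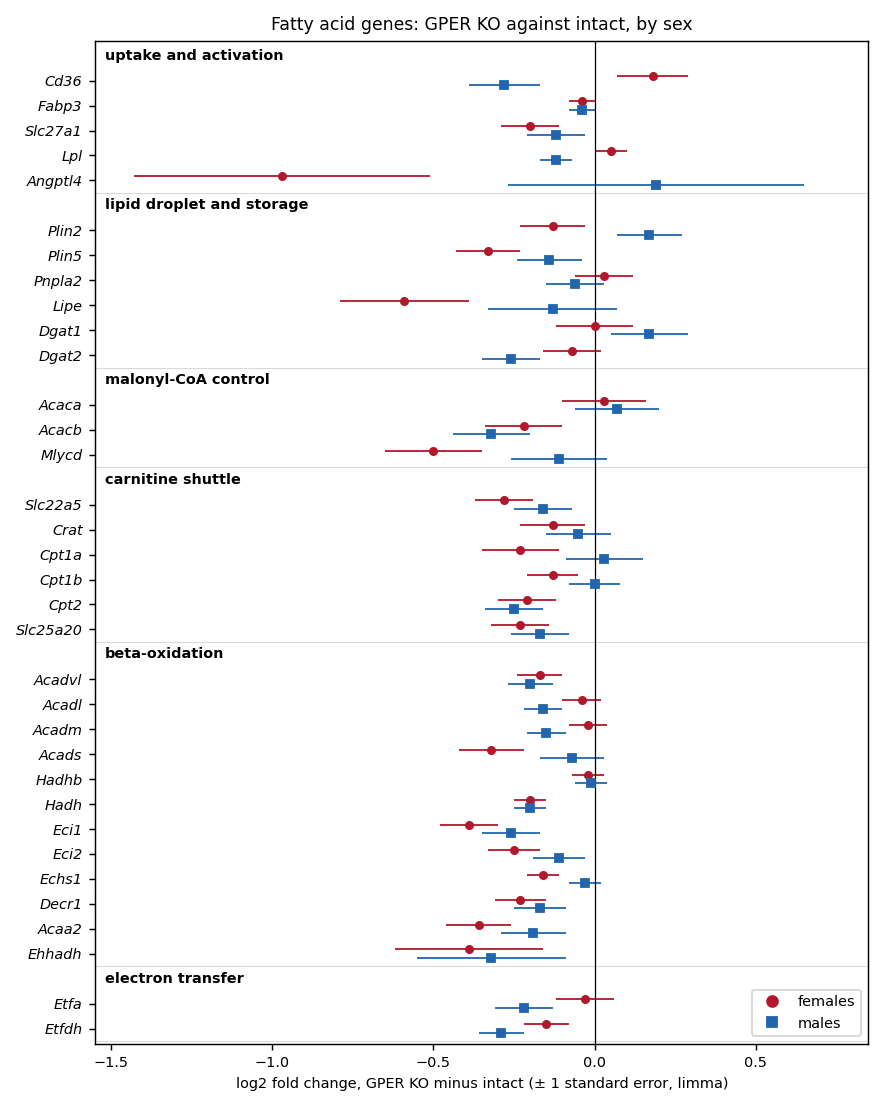
Log2 fold change of each measured fatty acid gene, GPER KO minus intact, in females (circles) and males (squares), with bars of 1 standard error from limma (4 arrays per group), grouped by step. All 12 beta-oxidation genes lie left of 0 in both sexes, while Cd36 and Lpl lie right of 0 in females and left of it in males.

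The 3 genes that passed act in mitochondrial oxidation. Hadh, the hydroxyacyl-CoA dehydrogenase of the second dehydrogenation, read 11.93, 11.97, 11.95 and 11.92 in female GPER KO mice, against 12.14, 12.18, 12.18 and 12.08 in female intact mice. In males it read 12.00, 12.02, 11.82 and 11.95 in GPER KO, against 12.20, 12.10, 12.17 and 12.10 in intact mice. Every one of the 8 GPER KO arrays lay below every one of the 8 intact arrays, and Hadh was the only measured member for which this held, against 0.158% of all genes. The difference over both sexes was -0.20 (SE 0.04, limma adjusted p = 0.00957), which is 0.871 of the intact level. The difference was -0.20 in each sex on its own (SE 0.05, adjusted p = 0.148 in females and 0.121 in males). This probe set is of the Affymetrix x_at class, whose probes may also bind related sequences. The other probe set of Hadh gave -0.24 (adjusted p = 0.00993 among all probe sets). Without female intact 421 and 422 together the adjusted p of Hadh was 0.057, with a difference of -0.18.

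Eci1 moves double bonds of unsaturated fatty acids into the position that beta-oxidation can use. Its values were 10.29, 10.29, 10.29 and 10.28 in female GPER KO mice, against 10.60, 10.80, 10.82 and 10.49 in female intact mice. The male values were 10.24, 10.33, 10.07 and 10.45 in GPER KO mice, against 10.45, 10.38, 10.68 and 10.62 in intact mice. The female groups did not overlap, with almost no spread among the female GPER KO arrays, and in males animal 451 of the GPER KO group reached the lower intact values. The difference over both sexes was -0.33 (SE 0.06, limma adjusted p = 0.0147), or 0.798 of the intact level. By sex it was -0.39 in females (SE 0.09, adjusted p = 0.101) and -0.26 in males (SE 0.09, adjusted p = 0.275). Without female intact 421 and 422 the adjusted p over both sexes was 0.0793.

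Etfdh encodes the oxidoreductase that hands electrons from electron transfer flavoprotein to ubiquinone. It read 10.12, 10.15, 10.14 and 10.28 in female GPER KO mice, against 10.45, 10.26, 10.23 and 10.34 in female intact mice. Male GPER KO arrays read 10.17, 10.18, 10.02 and 10.01, against 10.52, 10.29, 10.39 and 10.35 on male intact arrays. The male groups did not overlap, and in females only animal 427 of the GPER KO group lay among the intact values. The difference over both sexes was -0.22 (SE 0.05, limma adjusted p = 0.0267). In males alone it was -0.29 (SE 0.07, adjusted p = 0.0639), the lowest adjusted p of any member within a sex, and in females -0.15 (SE 0.07, adjusted p = 0.376). Etfdh lost its call on leaving out any 1 of 8 of the 16 arrays, with an adjusted p of at most 0.0623, while Hadh and Eci1 stayed past the threshold whichever 1 of the 16 arrays was left out.

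The promoters of these 3 genes are shown because the genes passed the test over both sexes. Each sequence is the 250 bases before the RefSeq transcription start, 5′ to 3′ on the gene's strand, from the GRCm38.p6 assembly. Capitals mark matches on either strand to a GC box (GGGCGG) or, with up to 1 mismatch, to the NRF1 site (GCGCA followed directly by TGCGC). Hadh lies at chr3:131272102-131272351 on the minus strand, Eci1 at chr17:24426433-24426682 on the plus strand and Etfdh at chr3:79628768-79629017 on the minus strand.
Hadh: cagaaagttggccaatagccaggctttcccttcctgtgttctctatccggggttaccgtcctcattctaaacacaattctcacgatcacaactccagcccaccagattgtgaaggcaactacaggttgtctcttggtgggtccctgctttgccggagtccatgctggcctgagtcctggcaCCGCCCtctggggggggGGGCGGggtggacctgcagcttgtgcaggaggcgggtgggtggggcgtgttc
Eci1: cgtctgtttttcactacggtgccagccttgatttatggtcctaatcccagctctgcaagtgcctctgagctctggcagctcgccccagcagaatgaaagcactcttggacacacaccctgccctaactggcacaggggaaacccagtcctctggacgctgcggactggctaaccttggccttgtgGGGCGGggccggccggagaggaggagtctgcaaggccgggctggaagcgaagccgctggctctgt
Etfdh: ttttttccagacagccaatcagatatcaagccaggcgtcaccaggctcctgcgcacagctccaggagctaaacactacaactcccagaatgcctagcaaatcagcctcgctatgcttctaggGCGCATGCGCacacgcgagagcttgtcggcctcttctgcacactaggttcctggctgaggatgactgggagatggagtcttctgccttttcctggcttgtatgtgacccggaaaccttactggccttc

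The 3 promoters share no single one of these motifs, since Hadh and Eci1 hold GC boxes and Etfdh holds an NRF1 match. GC boxes are common near mammalian starts, and NRF1 is a transcription factor of many nuclear genes for mitochondrial proteins. Of the 34 measured members, 26 had a promoter in the RefSeq table, with 30 promoters among them. A GC box stood in 63.3% of the member promoters, against 32.7% of all 32851 promoters of the table. The NRF1 match stood in 10% of member promoters and 5.2% of all. The direct repeat of AGGTCA with 1 base between the copies, the kind of element that PPAR alpha with RXR binds, was searched on both strands with up to 2 mismatches. It stood in 13.3% of member promoters and 3.24% of all, in Cd36, Echs1, Etfa and Plin2. The core AGGTCA alone, searched without mismatches, stood in 23.3% of member promoters and 14% of all. A repeat match with mismatches need not hold the exact core, and the Etfa promoter held 0 of them. The estrogen-related receptor element, AGGTCA directly preceded by TCA, stood in 0 member promoters and 0.387% of all. The 4 repeat matches, each with 2 mismatches, are shown with 8 bases on each side and the match in capitals, to set beside the values of these genes below. They lie at chr5:17835939-17835967 (Cd36), chr7:140116484-140116512 (Echs1), chr9:55512300-55512328 (Etfa) and chr4:86670264-86670292 (Plin2), all in genes on the minus strand.
Cd36: tggttctcTGGCCTCTGACTTacttggat
Echs1: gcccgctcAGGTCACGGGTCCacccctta
Etfa: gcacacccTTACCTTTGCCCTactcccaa
Plin2: agctttcaGGACCCCTGACCTaagtcaga
A match of letters is a description only. None of these 4 genes passed the test in any comparison.

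All 12 measured beta-oxidation genes were below intact in each sex, with medians of -0.22 in females and -0.16 in males. Over both sexes 2 passed the adjusted test and were lower, against 0.538% of all genes. At an unadjusted p under 0.05, 11 of the 12 were lower, against 5.77% of all genes. The exception was Hadhb, the beta subunit of the trifunctional protein that carries out the last reactions on long chains. It averaged 11.99 ± 0.05 in female GPER KO and 12.02 ± 0.06 in female intact mice, and 11.97 ± 0.03 in male GPER KO and 11.98 ± 0.06 in male intact mice (SD, n = 4 each). The 95% interval of its difference over both sexes ran between -0.09 and 0.05, so a shift as large as that of Hadh or Eci1 lies outside it.

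The acyl-CoA dehydrogenases, which share the first reaction by chain length, were below intact in both sexes. Their differences were not tested against each other. Acadvl acts on very long chains and read 11.02, 10.90, 10.95 and 10.94 in female GPER KO mice, against 11.21, 11.12, 11.18 and 11.00 in female intact mice. In males it read 10.85, 11.04, 10.71 and 10.82 in GPER KO, against 11.15, 11.05, 11.03 and 11.01 in intact mice. Only 1 GPER KO array in each sex, 417 and 432, reached the lowest intact values. The difference of Acadvl was -0.17 in females and -0.20 in males, and -0.19 over both sexes (SE 0.05, limma adjusted p = 0.0747). Acadl and Acadm, for long and medium chains, were -0.04 and -0.02 in females, with overlapping groups. In males both had groups that did not overlap, with differences of -0.16 for Acadl and -0.15 for Acadm (SE 0.06, adjusted p = 0.333 and 0.32). The male effect minus the female effect was -0.12 for Acadl (95% interval between -0.30 and 0.06, adjusted p = 0.61). For Acadm it was -0.14 (between -0.31 and 0.04, adjusted p = 0.545), so it was not shown that the sexes differ in either gene.

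Acads, for short chains, had its larger fitted difference in females. It read 8.40, 8.48, 8.55 and 8.47 in female GPER KO mice, against 8.65, 8.88, 8.95 and 8.71 in female intact mice. The male values were 8.63, 8.69, 8.30 and 8.78 in GPER KO mice, against 8.52, 8.64, 8.82 and 8.71 in intact mice. The groups were apart in females and mixed in males, with differences of -0.32 in females (SE 0.10, limma adjusted p = 0.204) and -0.07 in males (SE 0.10, adjusted p = 0.872). The difference between the sexes, male minus female effect, was 0.25 with a 95% interval between -0.04 and 0.53 (adjusted p = 0.514), so it was not shown that the sexes differ.

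Acaa2, the thiolase of the last reaction, read 10.34, 10.39, 10.68 and 10.68 in female GPER KO mice, against 10.65, 11.02, 11.05 and 10.79 in female intact mice. Male GPER KO arrays read 10.77, 10.75, 10.47 and 10.77, against 10.87, 10.81, 10.96 and 10.89 on male intact arrays. The male groups did not overlap, and the female groups met at intact animal 418. The difference over both sexes was -0.27 (SE 0.07, limma adjusted p = 0.0856). Its other probe sets gave -0.26 (adjusted p = 0.0185) and -0.24 (adjusted p = 0.0343), both past the threshold when every probe set was tested.

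The remaining beta-oxidation genes were lower in both sexes without passing the adjusted test. Decr1, a reductase needed for polyunsaturated fatty acids, had a difference of -0.20 over both sexes (SE 0.05, limma adjusted p = 0.0835), and its other probe set had -0.30 (adjusted p = 0.00876). Eci2, a further isomerase, had -0.18 (adjusted p = 0.171), and Echs1, the hydratase of shorter chains, had -0.10 (adjusted p = 0.269). Echs1 and Decr1 had female groups that did not overlap, with GPER KO lower, which held for 3.73% of all genes. Ehhadh, the peroxisomal bifunctional enzyme, had -0.36 (SE 0.16, adjusted p = 0.412) and was wide in female intact mice, where it ran between 4.03 and 5.71. Etfa, a subunit of electron transfer flavoprotein, was -0.03 in females and -0.22 in males, with adjusted p values of 0.931 and 0.424.

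**Figure D2:**
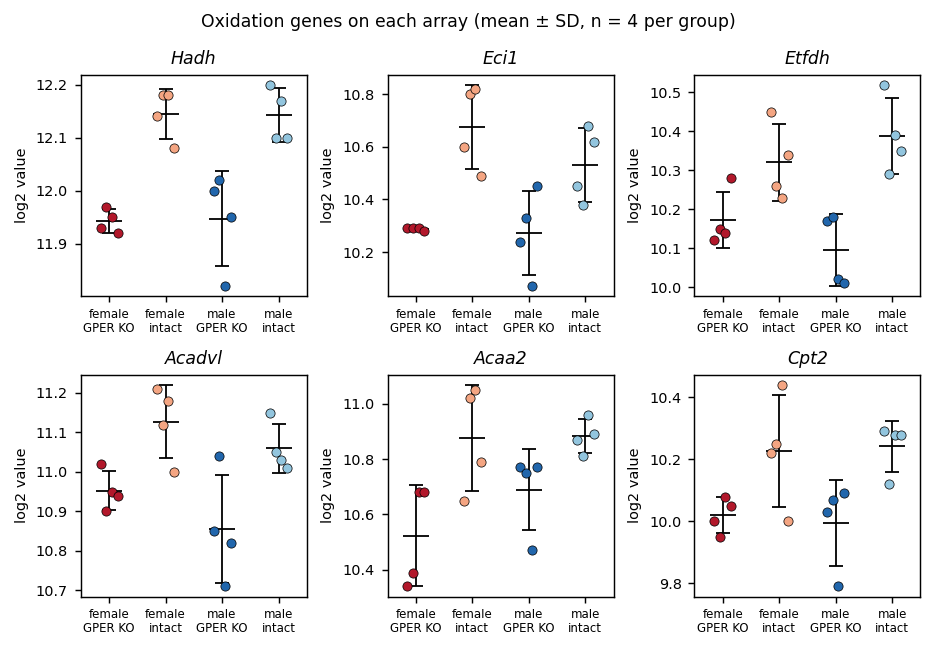
Log2 values of 6 oxidation genes on each array (points), with the group mean and SD as bars (n = 4), for GPER KO and intact mice of each sex. In Hadh the 8 GPER KO arrays reach at most 12.02 and the 8 intact arrays lie at 12.08 or above, while the groups of Acadvl and Cpt2 touch or overlap in females.

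Of the 6 carnitine shuttle genes, all 6 were below intact in females, with a median of -0.22, and 5 were below intact in males, with a median of -0.10. None passed the adjusted test. Cpt2 rebuilds acyl-CoA on the matrix side of the inner membrane. It read 10.00, 9.95, 10.08 and 10.05 in female GPER KO mice, against 10.22, 10.25, 10.44 and 10.00 in female intact mice. In males it read 10.03, 10.07, 9.79 and 10.09 in GPER KO, against 10.29, 10.12, 10.28 and 10.28 in intact mice. Male groups did not overlap, and in females only intact animal 425 lay among the GPER KO values. The difference of Cpt2 was -0.21 in females and -0.25 in males, and -0.23 over both sexes (SE 0.06, limma adjusted p = 0.0821).

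The carnitine carrier of the inner membrane, Slc25a20, and the plasma membrane carnitine transporter, Slc22a5, had differences of -0.20 (limma adjusted p = 0.165) and -0.22 (adjusted p = 0.146) over both sexes. Crat, which moves acetyl groups between CoA and carnitine, had -0.09 (adjusted p = 0.752). The carnitine palmitoyltransferases of the outer membrane did not pass the test either. Cpt1b, the muscle form, averaged 9.98 ± 0.04 in female GPER KO and 10.11 ± 0.12 in female intact mice, and 10.08 ± 0.19 in male GPER KO and 10.08 ± 0.05 in male intact mice (SD, n = 4 each).

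Cpt1a, the liver form of the same enzyme, had the lowest p of the members between intact males and females. It read 7.41, 7.49, 7.41 and 7.26 in female GPER KO mice, against 7.58, 7.57, 8.08 and 7.27 in female intact mice. The male values were 7.09, 7.28, 7.06 and 7.24 in GPER KO mice, against 7.13, 7.03, 7.23 and 7.14 in intact mice. All male intact arrays lay below all female intact arrays. The difference of Cpt1a between male intact and female intact mice was -0.49 (SE 0.12, limma adjusted p = 0.0672), where 0.579% of all genes and 0 of 34 members passed. Without female intact 425 it was -0.61 (adjusted p = 0.0156), the only 1 of the 16 single removals that let Cpt1a pass. At its smallest, with 1 array left out, this difference was -0.34, and adjusted p values reached 0.164. The genotype difference of Cpt1a was -0.23 in females, with an adjusted p of 0.449, and 0.03 in males, with an adjusted p of 0.956. Sex and animal number range cannot be told apart in these samples, since all female numbers are below all male numbers.

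Of the 3 genes that set malonyl-CoA, 2 were below intact in both sexes. Acacb makes malonyl-CoA at the outer mitochondrial membrane. It read 8.60, 8.24, 8.48 and 8.45 in female GPER KO mice, against 8.57, 8.70, 8.91 and 8.49 in female intact mice. Male GPER KO arrays read 8.20, 8.57, 8.02 and 8.62, against 8.60, 8.60, 8.78 and 8.68 on male intact arrays. The groups overlapped in both sexes, through GPER KO animals 417 and 451. The difference of Acacb over both sexes was -0.27 (SE 0.09, limma adjusted p = 0.179). Mlycd, which degrades malonyl-CoA, was also lower, at -0.50 in females (SE 0.15, adjusted p = 0.211), with groups that did not overlap, and at -0.11 in males (adjusted p = 0.877). Acaca, the cytosolic carboxylase that feeds fatty acid synthesis, had 0.03 in females and 0.07 in males.

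Of the 6 genes of lipid droplets and storage, 4 were below intact over both sexes, with a median of -0.09, and 0 passed the test. Plin5, a droplet coat protein of oxidative tissues, read 8.34, 8.43, 8.61 and 8.74 in female GPER KO mice, against 8.78, 8.94, 9.13 and 8.61 in female intact mice. In males it read 8.65, 8.67, 8.51 and 8.65 in GPER KO, against 8.77, 8.72, 8.77 and 8.78 in intact mice. The male groups did not overlap although they lay close together, and the female groups overlapped through intact animal 425 and GPER KO animal 427. The difference of Plin5 was -0.33 in females (SE 0.10, limma adjusted p = 0.194), -0.14 in males (adjusted p = 0.702) and -0.24 over both sexes (adjusted p = 0.121).

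Plin2, the droplet coat protein found in most cells, read 7.46, 7.30, 7.58 and 7.57 in female GPER KO mice, against 7.40, 7.66, 7.92 and 7.46 in female intact mice. The male values were 7.85, 7.66, 7.74 and 7.57 in GPER KO mice, against 7.55, 7.59, 7.42 and 7.58 in intact mice. Plin2 had a difference of -0.13 in females and 0.17 in males, and all groups overlapped. The male effect minus the female effect was 0.30 (95% interval between 0 and 0.60, limma adjusted p = 0.457).

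Dgat2 catalyses the last step of triglyceride synthesis. It read 9.76, 9.69, 9.78 and 9.73 in female GPER KO mice, against 9.84, 9.92, 9.81 and 9.68 in female intact mice. Male GPER KO arrays read 9.65, 9.93, 9.36 and 9.73, against 9.90, 10.04, 9.94 and 9.84 on male intact arrays. Only GPER KO animal 432 reached the male intact range. Dgat2 had -0.26 in males (SE 0.09, limma adjusted p = 0.27) and -0.07 in females (adjusted p = 0.801). The other enzyme of that step, Dgat1, had 0.00 in females and 0.17 in males. Pnpla2, the triglyceride lipase that starts droplet breakdown, lay low, at percentile 29.5, and had 0.03 in females and -0.06 in males, so its probe set carries little signal in either genotype.

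Of the 6 steps, uptake and activation had the median nearest 0 over both sexes, at -0.05, with 5 measured genes. By sex its median was -0.04 in females and -0.12 in males. In males the medians of lipid droplets and storage (-0.09), the carnitine shuttle (-0.10) and malonyl-CoA control (-0.11) were nearer 0. Fabp3, the fatty acid binding protein of the heart and among the strongest signals of the array, averaged 12.40 ± 0.05 in female GPER KO and 12.44 ± 0.04 in female intact mice, and 12.39 ± 0.02 in male GPER KO and 12.42 ± 0.03 in male intact mice (SD, n = 4 each). The 95% interval of its difference over both sexes ran between -0.10 and 0.03. Slc27a1, fatty acid transport protein 1, read 6.65, 6.55, 6.70 and 6.83 in female GPER KO mice, against 6.86, 6.94, 6.99 and 6.73 in female intact mice. In males it read 6.59, 6.77, 6.63 and 6.63 in GPER KO, against 6.99, 6.88, 6.69 and 6.55 in intact mice. The groups overlapped in both sexes, and the difference of Slc27a1 over both sexes was -0.16 (SE 0.06, limma adjusted p = 0.312).

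Cd36, the fatty acid translocase, had differences of opposite sign in the sexes. It read 11.17, 11.19, 11.15 and 11.28 in female GPER KO mice, against 11.26, 10.83, 10.83 and 11.17 in female intact mice. The male values were 11.06, 11.13, 11.24 and 10.74 in GPER KO mice, against 11.46, 11.35, 11.24 and 11.23 in intact mice. In females intact animals 421 and 422 were low, and in males GPER KO animal 451 was low. Cd36 had a difference of 0.18 in females (SE 0.11, limma adjusted p = 0.54) and -0.28 in males (SE 0.11, adjusted p = 0.358). The male effect minus the female effect was -0.45 (SE 0.15, unadjusted p = 0.00986, adjusted p = 0.426). Cd36 is also made by endothelial cells and macrophages, whose marker levels by group are given above, and their part in its values was not tested.

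Lpl, the lipoprotein lipase, had differences of the same signs as Cd36 at a smaller size. It read 12.59, 12.50, 12.52 and 12.59 in female GPER KO mice, against 12.50, 12.43, 12.53 and 12.54 in female intact mice. Male GPER KO arrays read 12.47, 12.49, 12.52 and 12.48, against 12.59, 12.66, 12.63 and 12.56 on male intact arrays. The male groups did not overlap. Lpl had 0.05 in females and -0.12 in males, and the male effect minus the female effect was -0.17 (SE 0.06, unadjusted p = 0.0204, limma adjusted p = 0.426). For this difference between the sexes 0 of 34 members and 0% of all genes passed, and Cd36 and Lpl were the 2 members with an unadjusted p under 0.05, against 11% of all genes. In females the 95% interval ran between -0.06 and 0.41 for Cd36 and between -0.05 and 0.14 for Lpl. For the difference between the sexes it ran between -0.78 and -0.12 for Cd36 and between -0.30 and -0.03 for Lpl. These intervals are not adjusted for the number of genes. After adjustment neither gene passed, so it was not shown that the sexes differ in either gene.

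**Figure D3:**
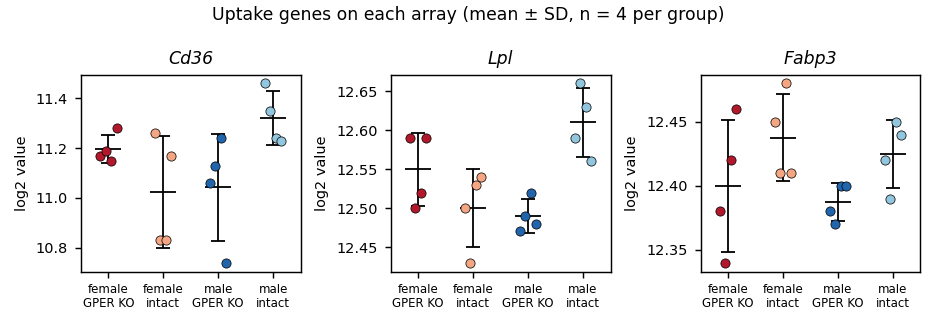
Log2 values of Cd36, Lpl and Fabp3 on each array (points), with the group mean and SD as bars (n = 4), for GPER KO and intact mice of each sex. Male GPER KO arrays of Lpl lie below all male intact arrays, with differences of Cd36 and Lpl above 0 in females. The GPER KO and intact groups of Fabp3 overlap within each sex.

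The female differences came with a wide spread among the 4 female intact arrays. Among them, animal 422 had the highest value for 20 of 34 members and animal 425 the lowest for 24. In male GPER KO mice animal 444 had the lowest value for 20. The mean over the 34 members was 8.92, 8.89, 8.95 and 8.92 in female GPER KO mice, against 9.06, 9.15, 9.33 and 8.93 in female intact mice. In males it was 8.93, 8.97, 8.82 and 8.96 in GPER KO, against 9.06, 9.00, 9.08 and 9.00 in intact mice. So intact animal 425 stood at the level of the female GPER KO arrays, and the male groups were apart.

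The largest SDs among the female intact arrays were those of Angptl4 (1.48), Ehhadh (0.74), Lipe (0.58), Mlycd (0.41) and Cpt1a (0.34). Angptl4, a secreted inhibitor of lipoprotein lipase that fasting induces in many tissues, read 4.64, 4.81, 4.60 and 4.45 in female GPER KO mice, against 4.78, 5.44, 7.73 and 4.44 in female intact mice. In males it read 4.91, 4.53, 4.81 and 4.51 in GPER KO, against 4.77, 4.29, 4.54 and 4.39 in intact mice. Animal 422 stood alone, with 421 next. The female difference of Angptl4 was -0.97 (SE 0.46, limma adjusted p = 0.403), and over both sexes it was -0.39 (adjusted p = 0.754) with all arrays and 0.10 (adjusted p = 0.809) without intact 421 and 422. The male intact minus female intact difference was -1.10 (adjusted p = 0.237), with -0.39 (adjusted p = 0.394) without 422 and -1.48 (adjusted p = 0.0881) without 425.

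Lipe, the hormone-sensitive lipase, read 5.55, 5.85, 5.66 and 5.49 in female GPER KO mice, against 6.06, 6.30, 6.97 and 5.58 in female intact mice. The male values were 5.57, 5.36, 5.45 and 5.62 in GPER KO mice, against 5.40, 5.55, 5.81 and 5.76 in intact mice. Animal 422 was again the highest. The difference of Lipe was -0.59 in females (SE 0.20, limma adjusted p = 0.242) and -0.13 in males (adjusted p = 0.891), and male intact minus female intact was -0.60 (adjusted p = 0.149). Without female intact 425 the difference between intact males and females was -0.81 (adjusted p = 0.0269) and that of GPER KO over both sexes -0.47 (adjusted p = 0.048), while without 422 Lipe had -0.35 (adjusted p = 0.331) between intact mice. Its other probe set, at percentile 16.4, gave 0.00 over both sexes (adjusted p = 0.993). Ehhadh, Mlycd and Cpt1a also had their highest value of all arrays in animal 422. The mean of the adipocyte markers was 3.63 in animal 422, within the 3.46 to 3.67 of all arrays. The endothelial mean was 6.11 in 422 and 6.07 in 421, against 5.65 in 418 and 5.68 in 425. Atrial markers averaged 9.48 in 422 and 9.78 in 421, against 8.92 in 418 and 8.07 in 425. In the same order, macrophage markers averaged 4.88 and 4.89, against 4.64 and 4.66. Fibroblast markers averaged 5.20 and 5.30, against 4.86 and 4.84, and smooth muscle markers 5.92 and 5.93, against 5.78 and 5.34. The erythroid mean was 6.28 in 422 and 6.25 in 421, against 5.49 in 418 and 5.99 in 425. The cardiomyocyte mean was 11.76 in 422 and 421, against 11.82 in 418 and 11.79 in 425. The part of these levels in the values of 421 and 422 was not tested.

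**Figure D4:**
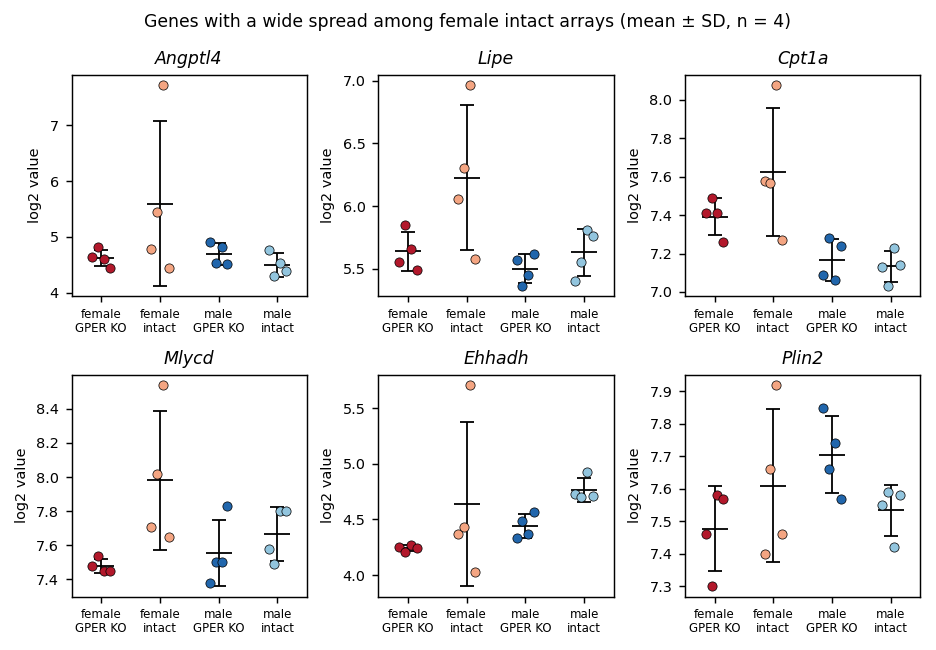
Log2 values of Angptl4, Lipe, Cpt1a, Mlycd, Ehhadh and Plin2 on each array (points), with the group mean and SD as bars (n = 4), for GPER KO and intact mice of each sex. Female intact animal 422 is the highest point in each of the 6 panels, at 7.73 for Angptl4.

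**Figure D5:**
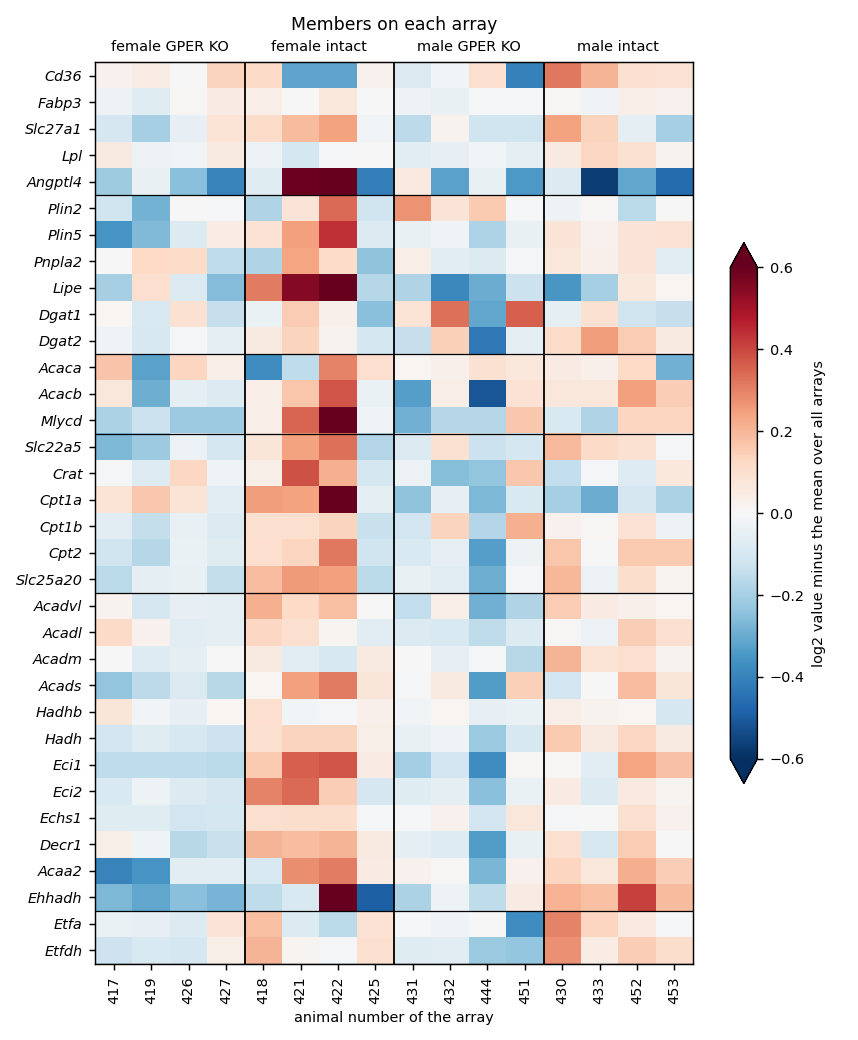
Log2 value of each measured fatty acid gene on each array, minus the gene's mean over all 16 arrays, with genes in order of step down the page and animals across. Female intact 422 is the highest of its group for 20 of the 34 members and 425 the lowest for 24, and male GPER KO 444 is the lowest of its group for 20.

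Between intact males and females, 20 of 34 members were lower in males, against 57.8% of all genes, with a median difference of -0.03, and 5 had an unadjusted p under 0.05, against 17.5% of all genes. Cd36 and Lpl were the 2 that were higher in males, with 0.30 (limma adjusted p = 0.18) and 0.11 (adjusted p = 0.248), and Angptl4, Lipe and Cpt1a the 3 that were lower. Without female intact 425, Lipe and Cpt1a passed the adjusted test, with -0.81 (adjusted p = 0.0269) and -0.61 (adjusted p = 0.0156), when 2.19% of all genes did. With any other single array left out neither passed, and the differences shrank to as little as -0.35 for Lipe and -0.34 for Cpt1a.

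Neighbouring genes of the pathway served as a wider view. Of 73 others (further transporters and synthetases, droplet proteins, fatty acid synthesis, and peroxisomal and mitochondrial oxidation), 64 were measured and 0 passed the test for genotype. Of these, 39 were below intact in females and 35 in males, with medians of -0.05 and -0.02. Over both sexes 12 were lower and 6 higher at an unadjusted p under 0.05, against 5.77% and 5.9% of all genes. The droplet-forming proteins Fitm1 and Fitm2 were among the lower ones. Fitm1 read 8.61, 8.68, 8.83 and 8.80 in female GPER KO mice, against 9.04, 9.30, 9.09 and 9.00 in female intact mice, without overlap, with a difference of -0.38 (SE 0.09, limma adjusted p = 0.103), and it had -0.09 in males. Fitm2 had -0.27 in females and -0.18 in males. Pecr, a peroxisomal enoyl-CoA reductase, had -0.35 in females (adjusted p = 0.101) and 0.07 in males.

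Of 9 measured genes of fatty acid synthesis and desaturation, 7 were above intact over both sexes, with a median of 0.04, and 0 passed the test. Fasn, the fatty acid synthase, read 5.19, 4.60, 5.58 and 5.59 in female GPER KO mice, against 4.62, 4.70, 5.23 and 5.02 in female intact mice. The arrays of male GPER KO mice read 5.35, 6.01, 5.47 and 5.67, against 4.80, 5.21, 4.99 and 4.92 on male intact arrays. The male groups did not overlap, and the difference of Fasn was 0.64 in males (SE 0.20, limma adjusted p = 0.214) and 0.35 in females (adjusted p = 0.504). Hacl1, which acts in peroxisomal alpha-oxidation, had 0.31 in females and 0.29 in males (adjusted p = 0.113 over both sexes), and Cidea, a droplet fusion protein, had 0.06 in females and 0.35 in males (adjusted p = 0.837 and 0.143). Elovl1, an elongase, had -0.04 in females and 0.31 in males, and Abcd3, a peroxisomal transporter, had -0.09 in females and -0.41 in males (adjusted p = 0.178).

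Between intact males and females, 1 of the 64 passed, against 0.579% of all genes. Agpat3, an acyltransferase of phospholipid and triglyceride synthesis, read 8.18, 8.11, 8.07 and 8.13 in male intact mice, against 8.59, 8.57, 8.69 and 8.23 in female intact mice. All male values were below all female values, with a difference of -0.39 (SE 0.08, limma adjusted p = 0.048). This call lay at the threshold: it held under 7 alternative settings and was lost under 16, among them the mean of probe sets (adjusted p = 0.0508) and median centring (adjusted p = 0.0576). Agpat3 had -0.49 (adjusted p = 0.00292) without female intact 425, -0.33 (adjusted p = 0.128) without 422 and -0.28 (adjusted p = 0.349) without 421 and 422. In the same comparison Agpat1, of the same family, had -0.29 (adjusted p = 0.0631), Hsd17b10, a mitochondrial dehydrogenase, had -0.23 (adjusted p = 0.131), and Acsl6, an acyl-CoA synthetase, had 0.44 (adjusted p = 0.171). Abcd2, a peroxisomal transporter, was low on the array and had 0.19 in female and -0.15 in male GPER KO mice relative to intact mice.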

How the data were processed

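Total RNA was labelled by 3′ in vitro transcription and hybridised to GeneAtlas MG-430 PM arrays. The authors deposited log2 values per probe set, made with RMA in Partek (versions and genome build are not given in the sources used here). RMA normally includes background correction and quantile normalization and compresses differences of low signals. Scanner intensities were not used. Of 45141 probe sets, 28898 had 1 gene in the platform annotation, and 28689 of these were matched through Entrez identifiers to RefSeq symbols. The probe set with the highest mean represented a gene, and levels are not compared between probe sets.

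Group means of all 16 arrays were fitted with limma 3.58.1 in R 4.3.3 (lmFit, contrasts.fit, eBayes), without a filter, with Benjamini-Hochberg adjustment over 17097 genes and a threshold of 0.05. Intervals are at 95%. The script was tested on simulated data. The members and lists, and the setting without female intact 421 and 422, were chosen with earlier results of these data known. Values on every array are given for members that passed, the 4 with the smallest unadjusted p in each of 5 contrasts and the first over both sexes in each of 6 steps. Other pathway genes are named if they passed or were among the first 4 in a contrast. The number of arrays limits the precision, and array strips and processing days are not given in the sources used here. Alternatives were averaged probe sets, every probe set, a filter at percentile 40 on 4 arrays, quantile normalization, median centring, array weights, a block of animal numbers, trend and robust settings, 1 sex alone, and arrays left out.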

Additional observations from a re-analysis of the deposited data

Results flagged for a closer look

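Among the 34 members in 4 groups, 136 sets of 4 arrays were examined for a single array far from the other arrays of its group by Dixon's criterion, and 11 were found, where chance at 1 in 20 gives about 6.8. Male GPER KO 444 was far below its group for 4 genes: Plin5 at 8.51 (others 8.65 to 8.67), Eci2 at 8.37 (others 8.55 to 8.58), Decr1 at 10.06 and Acaa2 at 10.47. Male GPER KO 451 was low for Etfa, at 10.64. Female intact 425 was low for Cpt1b at 9.93 (others 10.16 to 10.20), Slc25a20 at 9.45 (others 9.80 to 9.87) and Echs1 at 10.35 (others 10.46 to 10.47). Male intact 433 was low for Plin5 at 8.72 and Cpt2 at 10.12. Male intact 452 was high for Ehhadh, at 4.93 (others 4.70 to 4.73). Several of these gaps are small in size because the other arrays lay close together.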

How the results depend on the processing

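Over 821 values of the members named above under another setting, 785 kept their direction and their side of the threshold, 17 passed it newly, 10 no longer passed and 9 changed sign. Only the 3 calls over both sexes had passed in the main fit, so only they could lose a call. Of the 10 losses 8 were of Etfdh, 1 of Hadh and 1 of Eci1. The 3 calls over both sexes became 5 when a gene's probe sets were averaged, which added Decr1 and Acaa2, with 1.36% of all genes called. They became 5 with every probe set tested on its own, where 254 genes were called among all tested. Without female intact 421 and 422 they became 1, where Etfdh remained and 1.22% of all genes were called. In males 0 calls became 1 with the mean of probe sets (Hadh, with 0.632% of all genes called). Every probe set also gave 1 (Hadh, with 114 genes called among all tested, against 106 in the main fit), with the same limit. Trend and robust settings gave 1 as well (Etfdh, with 0.643% of all genes called). Leaving out 1 array gave 2 to 10 calls over both sexes, 0 to 5 in females and 0 to 2 between intact males and females. The highest count in each case came without female intact 425, which left 1.73%, 0.93% and 2.19% of all genes called in those comparisons. Members lower without overlap numbered 6 to 18 in females (18 without 425), 9 to 13 in males, and 1 to 2 over 8 against 8 arrays, where the mean of probe sets gave 2 and leaving out 421 and 422 gave 3. Leaving out an array can only keep or raise such a count, so no range could fall below the count with all arrays. The share of all genes lower without overlap was 3.73% to 8.56% in females (8.56% without 425), 1.97% to 3.91% in males and 0.164% to 0.257% over 8 against 8 arrays, where the mean of probe sets gave 0.17% and leaving out 421 and 422 gave 0.328%. Without those 2 arrays Cpt1a was 0.002 and Angptl4 0.103 over both sexes. The other probe sets, at percentiles 0.186 and 16.4, gave 0.017 for Angptl4, and for Lipe 0.004 over both sexes and 0.021 between intact males and females. Plin2, at 0.017 over both sexes, ranged from -0.017 to 0.07 with 1 array left out. The cause of these changes was not tested.

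Over all genes the 48 calls in females became 13 within 1 sex alone and 10 without 421 and 422, the 106 in males became 181 with array weights and 66 within 1 sex alone, and the 99 between intact males and females became 43 with the mean of probe sets, 50 with median centring, 46 with array weights and 7 without 421 and 422. With 1 array left out the calls over all genes ran from 20 (without female intact 421) to 159 (without female intact 425) in females, 53 (without male intact 430) to 120 (without female intact 422) in males, 162 (without male intact 452) to 296 (without female intact 425) over both sexes, and 13 (without female intact 422) to 375 (without female intact 425) between intact males and females. No paired analysis was possible because the animal numbers are unique and the groups share none. The block of low and high animal numbers changed no member call; it could not be fitted for intact males against females. Low signals of Pnpla2 and Gper1 limit what can be seen there.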
